A study of Mus musculus with 9 samples.

Results

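Sialyltransferases are the Golgi enzymes that place sialic acid on the ends of sugar chains. The genes described here are 10 of them, St6galnac1, St6galnac2, St6galnac3, St6galnac4, St6galnac6, St6gal1, St3gal1, St3gal3, St3gal4 and St3gal6. They were taken by name, without regard to their values, out of 18194 genes on the array, together with all 22 of their probe sets out of 34958 that the platform annotation gives to 1 gene. A probe set is the group of short probes on the array that reports 1 transcript. Expression was measured in the colonic mucosa of male C57BL/6 mice aged 6 weeks, on 9 arrays. Of these, 3 were from wild-type mice (WT), 3 from mice labelled Gas-/- (the gastrin knockout, GasKO here) and 3 from mice labelled hGas Transgenic (hGAS here, a gastrin transgene of human origin by its name). All mice lived in a pathogen-free facility, and the mucosa was lifted off by injecting PBS under it. The series title concerns progastrin, the precursor encoded by the gastrin gene, and cell proliferation. The promoter of the transgene, its founder line and any pooling of mice are not given in the sources used here.

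Each enzyme takes sialic acid from the activated donor CMP-sialic acid and joins it to 1 kind of acceptor sugar. Enzymes named ST6GALNAC cap N-acetylgalactosamine, the sugar that starts the O-linked chains of mucins. ST6GAL enzymes and ST3GAL enzymes cap galactose, at different positions of that sugar, on N-linked chains, O-linked chains and glycolipids. In the colon, goblet cells load the mucin MUC2 with sialylated O-glycans, and terminal sialic acid slows the breakdown of mucus by bacterial enzymes.

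Values are on the log2 scale of the deposited table, so that a difference of 1 is a doubling, and levels of different probe sets were not set against each other. A group mean under log2 4 is called near background. Array medians lay between 4.13 and 4.16. The probe set of Gast, the targeted gene, was at background on every array (1.93 to 2.14), so it checks neither the knockout nor the transgene. The GasKO arrays stood apart on the first principal component, which held 53.9% of the variance, and WT replicate 3 stood apart on the second, which held 18.1%. WT replicate 3 also had the lowest summed level of 11 goblet cell marker genes, taken as the mean over genes of the log2 value minus that gene's average over the arrays (-0.66, against 0.02 to 0.17 on the others). Goblet cell and colonocyte markers were high on all arrays, with mean levels of 11.93 to 12.76 and 11.58 to 11.93. Smooth muscle markers (13.00 to 13.34) and fibroblast markers (11.93 to 12.16) were high too. Each array samples a mixture of cells, so fewer cells of a type and less RNA per cell cannot be told apart.

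Among the 9 genes tested, St6galnac1 had the largest change in GasKO. It went from background in WT to a high level in GasKO and was at background again in hGAS. St6galnac2, its neighbour on the chromosome, was a little lower in GasKO than in WT, and St6gal1 was a little higher. St3gal1 was highest on the hGAS arrays, a rise that passed the test against GasKO but not against WT. For the other genes tested no difference from WT was called in either line. By the brightest probe set of each gene the furthest was -0.34, of St6galnac4 in hGAS. A further probe set of St3gal6, 1454246_at, gave -0.63 in hGAS, also not called.

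Of the 10 genes, 9 had a probe set that reached log2 4 on at least 3 arrays and entered the test, and St6galnac1 did so only through its GasKO arrays, so the counts over these 9 genes are descriptions. Of the 22 probe sets, 14 passed that filter. Between GasKO and WT, 2 genes rose and 1 fell at an adjusted p under 0.05 in limma, where 12.1% of all genes tested were called, 6.63% upward and 5.48% downward. No gene of the 9 was called in limma between hGAS and WT, and 1.16% of all genes were called. At an unadjusted p under 0.05 there were 4 of the 9, and 14.2% of all genes. In hGAS against GasKO 2 rose and 1 fell, where 16.6% of all genes were called, 8.05% upward and 8.51% downward. The arrays of the 2 groups did not overlap in 3 of the 9 genes between GasKO and WT (31.1% of all genes tested), in 3 between hGAS and WT (17.7%) and in 5 between hGAS and GasKO (36.7%). The median absolute change of the 9 genes was 0.12 between GasKO and WT, beside 0.11 over all genes tested. It was 0.12 beside 0.08 between hGAS and WT, and 0.23 beside 0.12 between hGAS and GasKO. A moderated F test over the 3 genotypes called St6galnac1, St6galnac2 and St3gal1, with 15.8% of all genes called. The first 2 comparisons share their WT arrays and the last shares the arrays of both mutant lines, so the comparisons are not independent of each other.

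**Figure D1:**
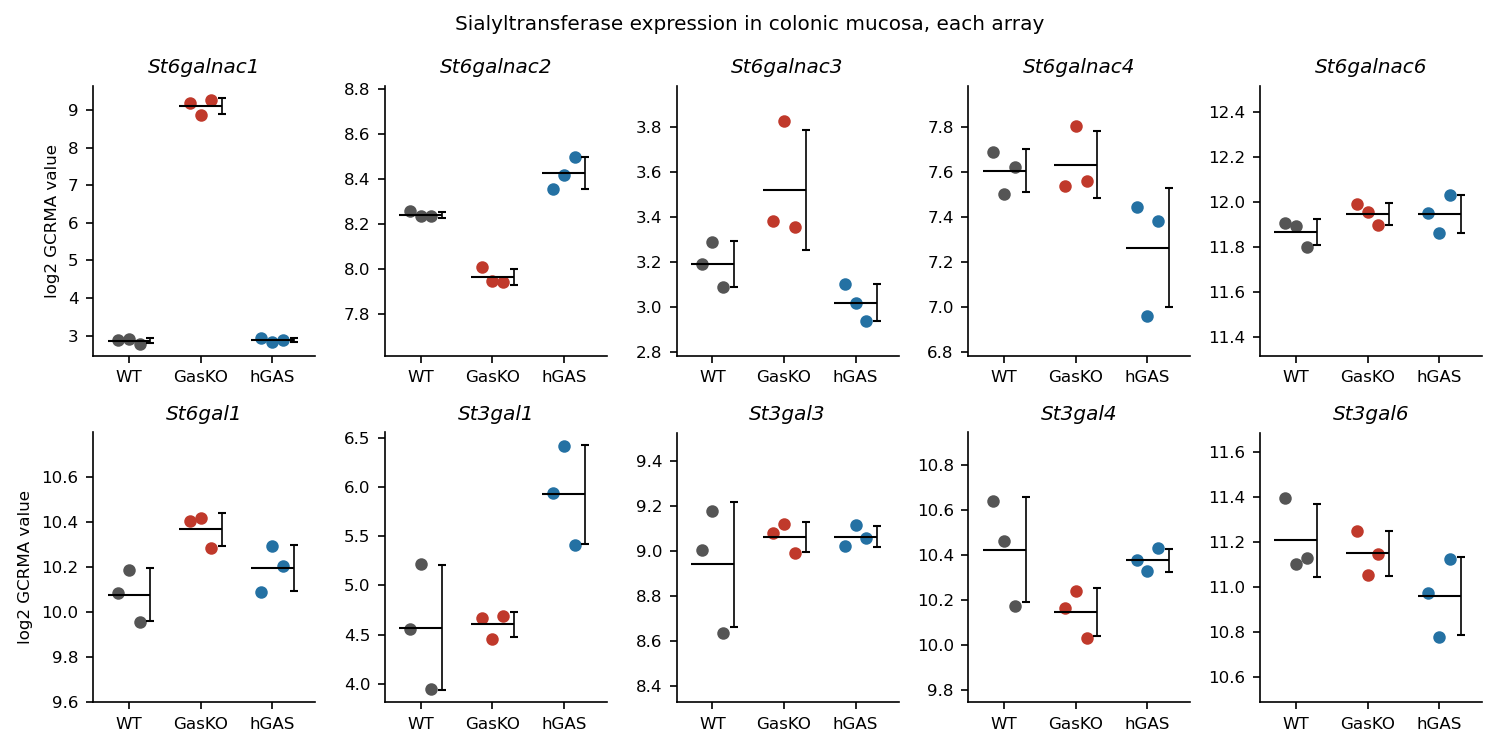
Log2 value of each sialyltransferase on every array, by genotype; points are arrays (3 per genotype), lines are group means and bars are SD. The GasKO points of St6galnac1 lie between 8.87 and 9.25 while the other 6 lie between 2.78 and 2.94, and the hGAS points of St3gal1 lie above those of the other genotypes.

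St6galnac1 encodes the enzyme that adds sialic acid to the first sugar of a mucin O-glycan and so makes the sialyl-Tn antigen, a structure that ends the chain. Its probe set 1421517_at read 2.89, 2.92 and 2.78 on the WT arrays. On the GasKO arrays it read 9.19, 8.87 and 9.25, and on the hGAS arrays 2.94, 2.82 and 2.88. All 3 GasKO arrays were high, and the WT and hGAS arrays lay together near background with overlapping values. The change between GasKO and WT was 6.24 ± 0.11 (SE, 95% confidence interval 5.99 to 6.49), an adjusted p of 1.5e-09 in limma. The gene entered the test only through its GasKO arrays, and with no filter on low values the adjusted p was 8.7e-09. As a fold this is 75.6, and since the WT level is background the fold depends on where the background lies. The difference between hGAS and WT was 0.02 (interval -0.23 to 0.27, adjusted p = 0.963 in limma), with both groups near background. The change between hGAS and GasKO was -6.22 ± 0.11 (SE), with an adjusted p of 1.5e-09.

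The second probe set of St6galnac1, 1431249_at, stayed below the filter in all genotypes. It read 2.75, 2.65 and 2.48 in GasKO and between 2.45 and 2.49 on the other arrays. The high signal in GasKO was therefore seen by 1 of the gene's 2 probe sets. Where each probe set lies in the transcript is not analysed here.

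Because St6galnac1 makes a mucin glycan, the levels of mucin and goblet cell genes were set beside it. The goblet cell markers had a summed level of 0.02 to 0.06 on the GasKO arrays and -0.66 to 0.13 on the WT arrays. Of the 11 markers 1 rose in GasKO (Spink4, by 0.36) and 2 fell (Atoh1 by 0.24 and Ern2 by 1.42). Over all genes tested, 6.63% rose and 5.48% fell. Muc2, the main gel-forming mucin of the colon, differed by 0.14 between GasKO and WT (adjusted p = 0.275 in limma). Without WT replicate 3 the change of St6galnac1 was 6.20.

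St6galnac1 lies on the same chromosome as Gast, with 290 protein-coding genes between them in the gene table. Whether this chromosome differs in strain of origin in the GasKO mice was not tested. Of its 3 nearest protein-coding neighbours on each side, 5 were expressed enough to be tested and Prcd was not. Mettl23, which encodes a methyltransferase-like protein, fell by 0.83 in GasKO (SE 0.07, adjusted p = 7.1e-05), and its second probe set fell by 1.21. Jmjd6, a nuclear hydroxylase gene, fell by 0.60 (SE 0.11, adjusted p = 0.0060), while its second probe set gave -0.21 with an adjusted p of 0.249. Cygb, the cytoglobin gene, rose by 0.34 (SE 0.09, adjusted p = 0.0414), a call that was kept in 10 of 20 alternatives. Mxra7 gave -0.35 (adjusted p = 0.124) and St6galnac2 is described below. Around St6galnac1 the called genes thus moved in both directions in GasKO. None of the 5 was called in limma in hGAS against WT, and St6galnac2 was the 1 with an unadjusted p under 0.05.

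**Figure D2:**
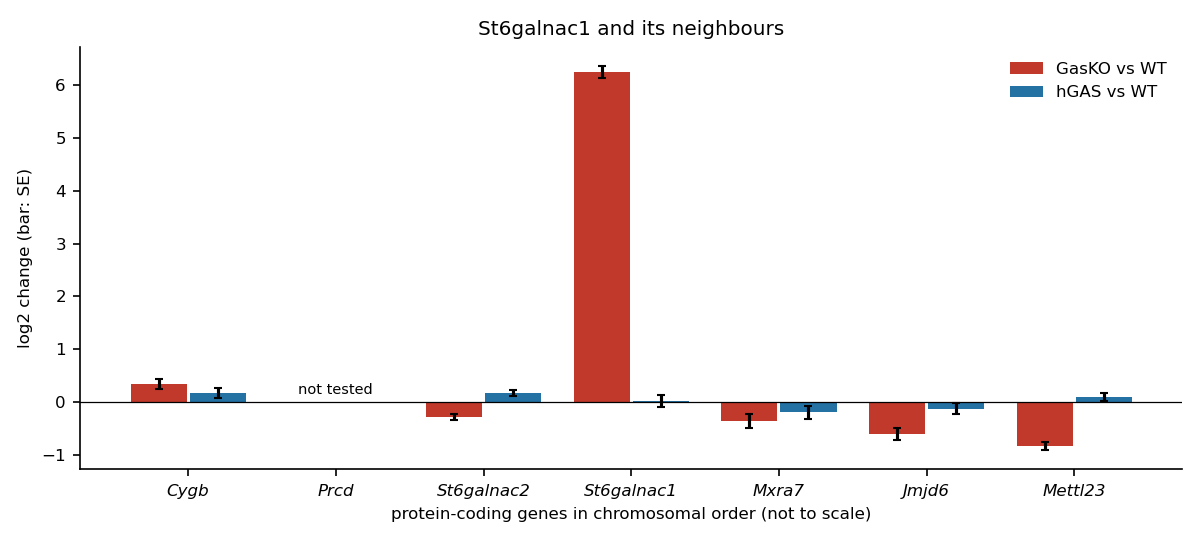
Log2 change of St6galnac1 and of the 3 protein-coding genes on each side of it, in gene order and not to scale, for GasKO vs WT and hGAS vs WT; bars start at 0, error bars are SE, and Prcd was not tested. St6galnac1 stands at 6.24 in GasKO while its tested neighbours lie between -0.83 and 0.34.

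The genes whose profile over the 9 arrays was most like that of St6galnac1 were Cap1, Lpo, Gdpd3, BC018473 and Krt12. Likeness was the root mean square difference of log2 values, each gene centred on its own mean, and it was 0.54, 0.67, 0.80, 1.01 and 1.22 for the 5 genes. Cap1 encodes a protein that binds actin, Lpo the secreted enzyme lactoperoxidase, Gdpd3 a glycerophosphodiester phosphodiesterase family protein and Krt12 a keratin best known from the cornea. Their changes between GasKO and WT were 5.05, 7.36, 4.58, 4.10 and 3.72, all called. BC018473 and Krt12 were near background in WT and hGAS and entered the test only through their GasKO arrays. Lpo, BC018473 and Krt12 lie on the chromosome of St6galnac1. Lpo differed from St6galnac1 in hGAS, where it read 6.88, 7.01 and 6.88 against 6.06, 5.89 and 4.78 in WT (1.35, adjusted p = 0.0508). These 5 genes were selected for likeness, so their changes are descriptions.

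**Figure D3:**
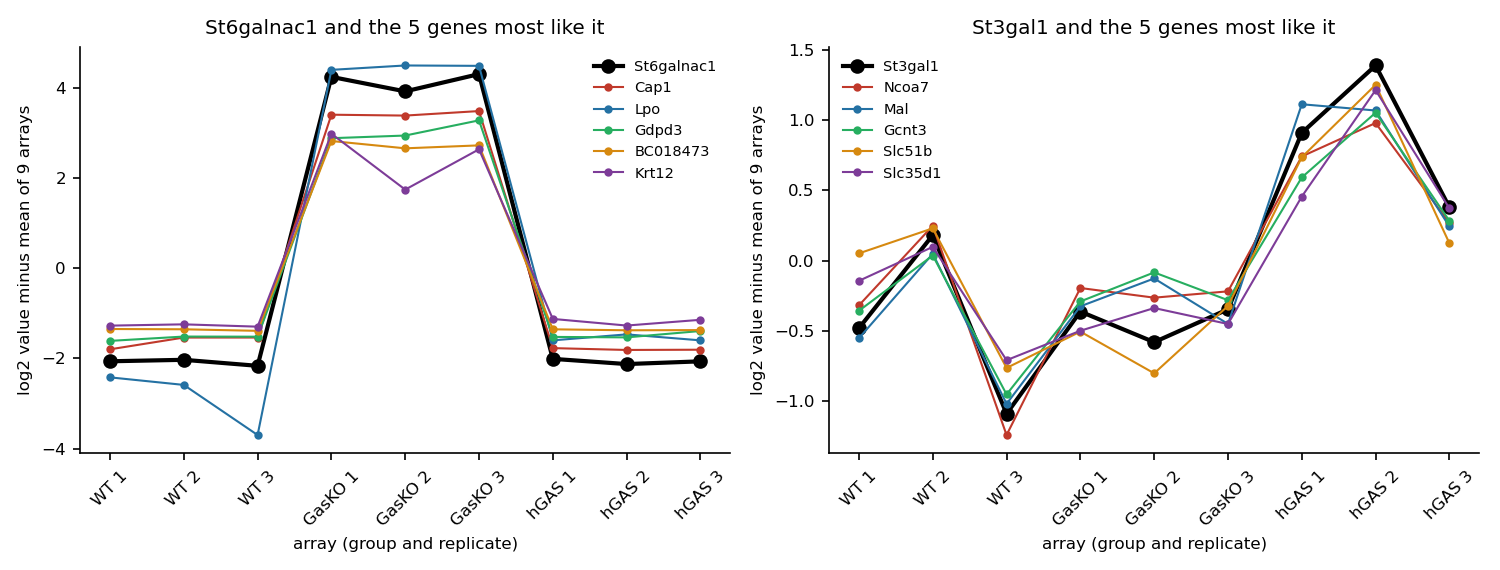
Centred log2 value (the average of the 9 arrays is set to 0 for each gene), for St6galnac1 and St3gal1 and the 5 genes most like each, with arrays along the horizontal axis. The profiles of the St6galnac1 panel are high on the 3 GasKO arrays. Those of the St3gal1 panel have their highest mean in hGAS and their lowest WT value on WT replicate 3. The hGAS and WT arrays of Slc51b overlap.

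St6galnac2 encodes an enzyme that sialylates N-acetylgalactosamine once galactose has been added to it, and so acts on longer mucin chains than St6galnac1. Its probe set 1417616_at read 8.26, 8.23 and 8.23 in WT, 8.01, 7.95 and 7.94 in GasKO and 8.36, 8.42 and 8.50 in hGAS. The 3 genotypes did not overlap, with GasKO lowest and hGAS highest. It fell by 0.28 between GasKO and WT (SE 0.06, interval -0.40 to -0.15, adjusted p = 0.0123 in limma), a 1.21-fold decrease. Compared with GasKO, the hGAS arrays were higher by 0.46 (SE 0.06, interval 0.33 to 0.59, adjusted p = 5.6e-04), or 1.38-fold. From WT they differed by 0.18 (interval 0.06 to 0.31), whose adjusted p of 0.174 missed the threshold. The spread within each group was small, with SDs of 0.01, 0.04 and 0.07 in WT, GasKO and hGAS. A second probe set, 1417617_at, stayed at 2.28 to 2.31 on all arrays.

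St6galnac3, St6galnac4 and St6galnac6 encode enzymes that act on chains already carrying sialic acid, on O-glycans or on glycolipids. St6galnac3 stayed below the filter, and its 3 probe sets peaked at 1.91, 2.98 and 3.83. The highest of them, 1440121_at, read 3.38, 3.83 and 3.36 in GasKO, 3.19, 3.29 and 3.09 in WT and 3.10, 3.02 and 2.94 in hGAS. All groups were near background there, and no fold is given.

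St6galnac4, which encodes the main enzyme that turns a sialylated O-glycan core into its disialylated form, read 7.69, 7.50 and 7.62 in WT and 7.54, 7.81 and 7.56 in GasKO. On the hGAS arrays it read 7.45, 6.96 and 7.38, all below both other groups, and replicate 2 was lowest. The difference between hGAS and WT was -0.34 (interval -0.64 to -0.05, adjusted p = 0.27 in limma), and between hGAS and GasKO it was -0.37 (interval -0.67 to -0.08, adjusted p = 0.0862). Neither passed the threshold. GasKO and WT differed by 0.03 (interval -0.27 to 0.32, adjusted p = 0.929). A second probe set, 1418074_at, averaged 7.05 ± 0.29 on the WT arrays, 6.99 ± 0.04 on the GasKO arrays and 6.63 ± 0.33 on the hGAS arrays (SD, n = 3 each), with hGAS replicate 2 lowest again at 6.26. Its hGAS and WT values overlapped.

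St6galnac6, an enzyme gene of glycolipid and Lewis-type chain sialylation, had the smallest range of the 9 genes tested, 0.23 over the 9 arrays. Its only probe set read between 11.80 and 12.03, and the groups overlapped throughout. The differences from WT were 0.08 in GasKO (interval -0.04 to 0.20, adjusted p = 0.374) and 0.08 in hGAS (adjusted p = 0.556).

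St6gal1 encodes the main enzyme that caps the galactose of N-glycans, and in B cells its product is the ligand of the receptor CD22. Its probe set 1420928_at read 10.09, 10.19 and 9.96 in WT, 10.41, 10.42 and 10.28 in GasKO and 10.09, 10.29 and 10.21 in hGAS. All GasKO arrays lay above all WT arrays, and the hGAS arrays overlapped both groups. St6gal1 rose by 0.29 between GasKO and WT (SE 0.07, interval 0.13 to 0.46, adjusted p = 0.0319 in limma), or 1.22-fold. The call was lost when WT replicate 1 or 3 or GasKO replicate 1 or 2 was left out, with changes of 0.30, 0.23, 0.27 and 0.27 and adjusted p of 0.0736, 0.0868, 0.11 and 0.0958. Differences were 0.12 between hGAS and WT (interval -0.05 to 0.29, adjusted p = 0.523) and -0.17 between hGAS and GasKO (adjusted p = 0.151).

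The second probe set of St6gal1, 1420927_at, did not move with the first. It read 6.60, 6.59 and 6.59 in WT and 6.29, 6.70 and 6.47 in GasKO, a difference of -0.10 (interval -0.32 to 0.12, adjusted p = 0.557 over all probe sets tested). The GasKO values spread around the WT values.

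Markers of B cells and plasma cells also differed between the genotypes. The summed level of 6 B cell markers was 0.64 to 1.22 in GasKO, -0.02 to 0.50 in WT and -1.29 to -0.79 in hGAS. Of the 5 that could be tested 3 rose in GasKO (Cd79a by 1.17, Ms4a1 by 1.13 and Cr2 by 0.61), while Pax5 was near background. In hGAS 3 fell against WT, where 1.16% of all genes tested were called in either direction. Plasma cell markers were at 0.33 to 0.61 in GasKO and -1.12 to -0.34 in WT, with 4 of 5 called, and at -0.16 to 0.27 in hGAS, between the other groups. Of all genes tested, 12.1% were called between GasKO and WT, 6.63% upward. In hGAS, where the B cell markers were lowest, the mean of St6gal1 was 10.20 against 10.08 in WT. The part of these cells in the St6gal1 change was not tested.

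St3gal1 encodes the enzyme that caps the galactose of the basic O-glycan core and is best known from T cells. Its probe set 1418946_at read 4.55, 5.21 and 3.94 in WT, 4.67, 4.45 and 4.69 in GasKO and 5.94, 6.42 and 5.41 in hGAS. Every hGAS array lay above every array of the other groups. The WT arrays spread widely, with replicate 3 lowest, and enclosed the GasKO arrays. St3gal1 rose by 1.32 between hGAS and GasKO (SE 0.32, interval 0.61 to 2.03, adjusted p = 0.0199 in limma), or 2.50-fold. Between hGAS and WT the difference was 1.35 ± 0.32 (SE, interval 0.64 to 2.06), a 2.56-fold difference whose adjusted p of 0.082 missed the threshold. GasKO and WT differed by 0.03 (interval -0.68 to 0.74, adjusted p = 0.967). A second probe set, 1441216_at, stayed between 2.22 and 2.54.

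Single arrays moved St3gal1 across the threshold in both comparisons. Between hGAS and WT the gene was called without WT replicate 2 (1.68, adjusted p = 0.0425) and not without WT replicate 3 (1.04, adjusted p = 0.182). It was also called with the replicate number as a block (1.35, adjusted p = 0.0362). Between hGAS and GasKO the call was lost without any of the GasKO arrays or without hGAS replicate 1 or 2. The changes then ran from 1.07 to 1.36 with adjusted p between 0.0554 and 0.0636.

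The same arrays that were high in St3gal1 were high in markers of the proximal colon. The summed level of Hoxb6, Osr2, Isx and Prap1 was 1.14 to 3.03 in hGAS, with replicate 2 highest. It was -1.51 to -0.74 in WT, with replicate 3 lowest, and -1.01 to -0.76 in GasKO. All 4 rose in hGAS against WT, in a list drawn up with earlier results of these arrays known. Of 5 distal colon markers 2 fell in hGAS and 3 in GasKO, with summed levels of 0.47 to 0.64 in WT, -0.40 to -0.24 in hGAS and -0.35 to -0.04 in GasKO. Over all genes tested, 1.16% were called in hGAS against WT in either direction, and 5.48% fell in GasKO. T cell markers were near background on all arrays and none of 6 reached the filter. The part of the sampled colon region in the St3gal1 difference was not tested.

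The genes most like St3gal1 over the 9 arrays were Ncoa7, Mal, Gcnt3, Slc51b and Slc35d1, with root mean square differences of 0.21, 0.21, 0.24, 0.25 and 0.26. Gcnt3 encodes the enzyme that branches mucin O-glycans, Slc51b a subunit of the transporter that exports bile acids from enterocytes, and Slc35d1 a carrier of nucleotide sugars into the endoplasmic reticulum. Mal encodes a protein of apical transport vesicles and Ncoa7 a nuclear receptor coactivator. In all 5, as in St3gal1, WT replicate 3 was the lowest WT array. Their differences between hGAS and WT were 1.10, 1.31, 1.07, 0.86 and 0.93, none of them called. Without WT replicate 3 they were 0.70, 1.06, 0.80, 0.56 and 0.70. Between hGAS and GasKO, Mal, Gcnt3, Slc51b and Slc35d1 were called, with 1.11, 0.86, 1.25 and 1.11, and Ncoa7 was not (0.89, adjusted p = 0.0879). Of the neighbours of St3gal1 on its chromosome, Ndrg1 was higher on every hGAS array than on any WT array (0.43, adjusted p = 0.18, and 0.27 without WT replicate 3). Sla, an adaptor gene of lymphocyte receptor signalling, rose in GasKO by 0.96 (SE 0.08, adjusted p = 6.4e-05). Ccn4 and Khdrbs3 were not called in any comparison. They gave 0.24 and -0.008 between hGAS and WT (adjusted p = 0.487 and 0.974 in limma). The remaining neighbours, Zfat and Fam135b, did not pass the filter.

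St3gal3, St3gal4 and St3gal6 encode enzymes that cap the galactose of longer chains, among them the precursors of the sialylated Lewis antigens that selectins bind. St3gal4 read 10.64, 10.46 and 10.17 in WT, 10.17, 10.24 and 10.03 in GasKO and 10.38, 10.33 and 10.43 in hGAS. WT replicate 3 lay among the GasKO arrays, and the other 2 WT arrays lay above them. The difference between GasKO and WT was -0.28 (interval -0.51 to -0.04), with an unadjusted p of 0.0252 and an adjusted p of 0.128 in limma. Without WT replicate 3 it was -0.40 and was called (adjusted p = 0.0127). All hGAS arrays lay above all GasKO arrays, by 0.23 on average (adjusted p = 0.166).

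St3gal6 has 5 probe sets, of which 3 passed the filter, and all 3 had a lower mean in hGAS than in WT without being called. The probe set 1449079_s_at read 11.39, 11.10 and 11.13 in WT, 11.25, 11.05 and 11.14 in GasKO and 10.97, 10.78 and 11.12 in hGAS. Its difference between hGAS and WT was -0.25 (interval -0.48 to -0.02, adjusted p = 0.307 in limma), with overlapping arrays. The other 2 did not overlap. The probe set 1449078_at gave -0.29 (adjusted p = 0.215). The probe set 1454246_at gave -0.63 (interval -1.06 to -0.21, adjusted p = 0.171), and read 6.00, 5.36 and 5.94 in hGAS against 6.58, 6.13 and 6.50 in WT. On all 3 probe sets hGAS replicate 2 was the lowest array. GasKO and WT differed by -0.06 (interval -0.29 to 0.17, adjusted p = 0.769).

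St3gal3 read 9.01, 9.18 and 8.64 in WT, with replicate 3 lowest of all 9 arrays. It read 9.08, 9.12 and 8.99 in GasKO and 9.02, 9.12 and 9.06 in hGAS. The differences from WT were 0.12 in both lines (adjusted p = 0.552 and 0.695), and both were -0.03 without WT replicate 3. A second probe set, 1421915_a_at, read 6.34, 6.47 and 6.06 in WT, 6.46, 6.59 and 6.37 in GasKO and 6.71, 6.50 and 6.46 in hGAS, again with WT replicate 3 lowest. It gave 0.18 in GasKO and 0.27 in hGAS (adjusted p = 0.379 and 0.365), and 0.066 and 0.153 without WT replicate 3.

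**Figure D4:**
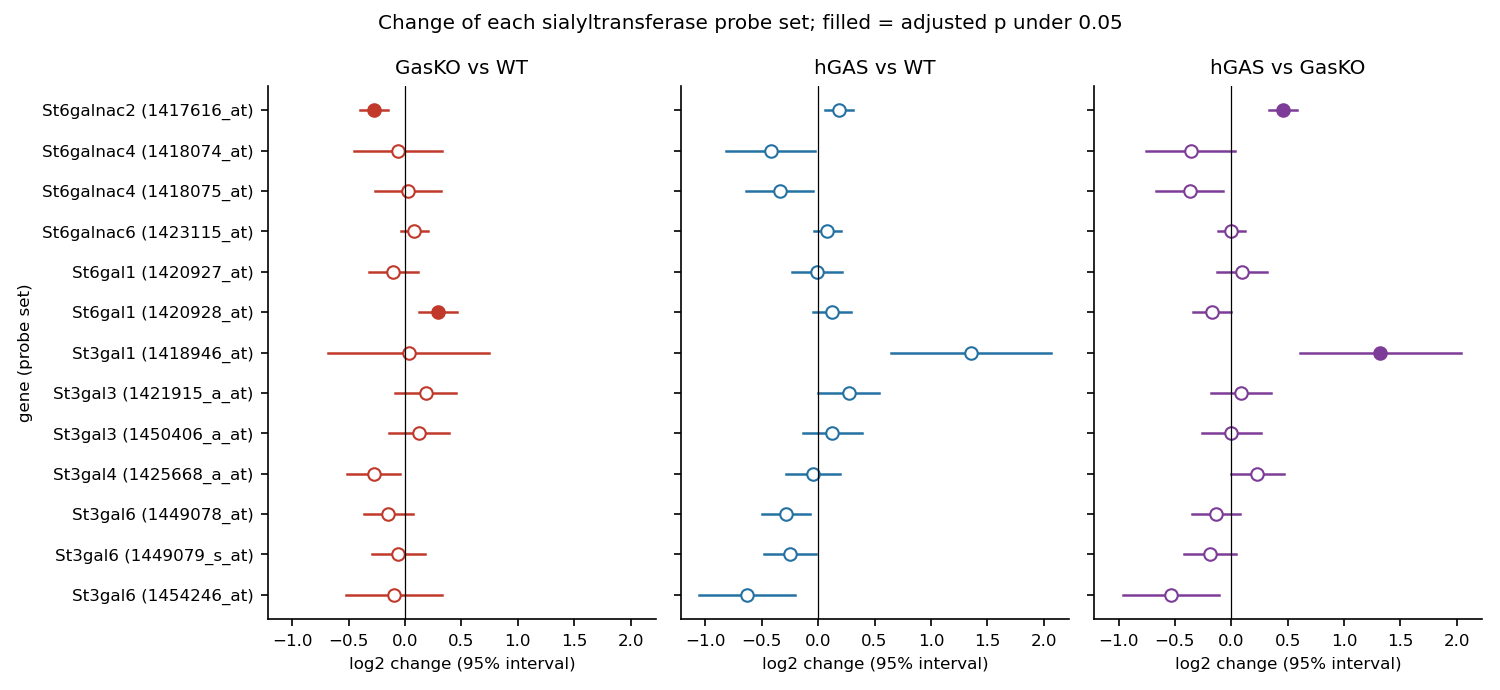
Log2 change with 95% confidence interval for the 13 sialyltransferase probe sets past the filter other than that of St6galnac1, in each of the 3 comparisons; filled symbols are called at an adjusted p under 0.05. Those of St6galnac2, St6gal1 and St3gal1 hold the called changes, and the 3 probe sets of St3gal6 lie below 0 between hGAS and WT.

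Counted by probe set, with p-values adjusted over 19834 probe sets, the calls were the same in number. The probe set of St6galnac1 passed the filter only through its GasKO arrays, so these counts too are descriptions. Between GasKO and WT 3 of 14 were called, against 11% of all probe sets tested. None of 14 was called in limma between hGAS and WT, where 0.872% of all were called. At an unadjusted p under 0.05 there were 8 of the 14, and 13.6% of all probe sets tested. In hGAS against GasKO 3 were called, against 14.7%. The groups did not overlap in 4, 5 and 7 of the 14 in GasKO vs WT, hGAS vs WT and hGAS vs GasKO, beside 30.6%, 17.2% and 34.5% of all probe sets tested.

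The array holds 10 more sialyltransferase genes, of which 4 passed the filter. St8sia4, which builds polysialic acid, read 7.02, 6.67 and 6.57 in WT, 7.68, 7.55 and 7.55 in GasKO and 6.52, 6.61 and 6.79 in hGAS. The GasKO arrays lay above all others, and the gene rose by 0.84 (SE 0.12, adjusted p = 0.0018 in limma). St8sia4 is also expressed by immune cells, whose markers rose in GasKO too. Of these, 4 of 6 myeloid and 3 of 5 B cell markers were called, where 6.63% of all genes tested rose. The part of these cells in the St8sia4 change was not tested. St8sia5, which acts on gangliosides, read 3.54, 3.55 and 3.72 in WT, 4.87, 5.16 and 6.05 in GasKO and 3.54, 3.74 and 3.53 in hGAS. It rose in GasKO by 1.76 (SE 0.25, adjusted p = 0.0017) from a WT level near background. St8sia5 entered the test only through its GasKO arrays, and with no filter its adjusted p was 0.0041. St3gal2 gave -0.25 (adjusted p = 0.253), while its other probe set, 1421892_at, gave 0.41 (adjusted p = 0.193). The difference of St8sia6 was 0.04 (adjusted p = 0.851), while its other probe set past the filter, 1456147_at, rose by 1.23 (adjusted p = 0.0011 over all probe sets tested). St3gal5, St6gal2, St6galnac5, St8sia1, St8sia2 and St8sia3 stayed near background. By the probe set that represents each gene, none of the 4 was called in limma in hGAS against WT, and none had an unadjusted p under 0.05. The probe set 1456147_at gave 0.66 there, with an unadjusted p of 0.0024 and an adjusted p of 0.0994 in limma.

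The counts for sialic acid supply and removal are given beside the 12.1% of all genes tested that were called between GasKO and WT. Of 9 genes for making, activating and moving sialic acid, 1 rose in GasKO and none fell. This was Slc17a5, which exports sialic acid from lysosomes (0.45, SE 0.08, adjusted p = 0.0046 in limma), and it fell by 0.31 between hGAS and GasKO. The median of the 9 was 0.06, beside 0.01 over all genes. Of 5 genes that remove sialic acid or edit its acetyl groups 1 rose, the lysosomal sialidase gene Neu1 (0.30, adjusted p = 0.0375), and its second probe set rose by 0.64. The Neu1 call was kept in 10 of 20 alternatives. Neu1 was also higher in hGAS than in WT, by 0.33 (adjusted p = 0.0864 in limma, not called), with arrays that did not overlap. Its second probe set gave 0.12 there (adjusted p = 0.719 in limma).

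Of 16 genes that start or branch the O-glycan chains, 2 rose and 1 fell in GasKO, where 6.63% of all genes tested rose and 5.48% fell. Galnt6 rose by 0.50 (adjusted p = 1.4e-04 in limma) and Galnt11 by 0.53 (adjusted p = 0.0015). Both add the N-acetylgalactosamine that starts an O-glycan. C1galt1, which adds the galactose that St3gal1 and St6galnac2 need, fell by 0.30 (adjusted p = 0.0442). That call was kept in 9 of 20 alternatives, and the gene's other probe sets gave -0.54 and 0.05. Between hGAS and GasKO 3 rose and 3 fell, where 16.6% of all genes were called, among them C1galt1 (up by 0.53) and Gcnt1 (-0.51). The median of the 16 was 0.11 in GasKO and 0.15 in hGAS against WT, beside 0.01 over all genes in both. The summed level of these genes was -0.39 on WT replicate 3, against -0.05 and 0.02 on the other WT arrays. It was -0.07 to 0.04 on the GasKO arrays, which enclosed those other WT arrays, and 0.08 to 0.22 on the hGAS arrays.

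Of 12 genes that extend chains or add caps that compete with sialic acid, 2 rose and 1 fell in GasKO, again beside 6.63% and 5.48% of all genes. Fut9, a fucosyltransferase of Lewis structures, rose by 1.13 (SE 0.14, adjusted p = 7.2e-04 in limma). Of its other probe sets past the filter, 1 rose by 1.55 and 1 gave 0.33 (adjusted p = 0.152). Fut2, which makes the H antigen on secreted mucins, rose by 0.45, a call kept in 16 of 20 alternatives, while its second probe set gave 0.08 (adjusted p = 0.705). Fut4 fell by 0.32, and its second probe set fell by 0.93. In hGAS against WT these probe sets gave -0.31 and -0.75 (adjusted p = 0.073 and 0.0659 in limma), and neither was called. Between hGAS and GasKO Fut9 fell by 1.56 and the sulfotransferase gene Gal3st2 by 0.54. Of 8 genes for N-glycan branching 1 rose in GasKO, Man2a1 (0.20, adjusted p = 0.0211, kept in 16 of 20 alternatives), and Man1a fell by 0.30 between hGAS and GasKO. Between GasKO and WT Man1a gave 0.18 and was not called (adjusted p = 0.0629 in limma). Its second probe set rose there by 0.38 (adjusted p = 0.0022 over all probe sets tested).

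Of 9 genes for making and degrading gangliosides and related glycolipids 1 rose and 3 fell in GasKO, beside the same shares of all genes. Galc, the lysosomal galactosylceramidase gene, fell by 3.49 to near background, and Glb1, the lysosomal beta-galactosidase gene, by 0.77. The fall of Galc was seen by its brightest probe set only. The other probe sets of Galc stayed below the filter, each with a mean of 2.73 over all arrays. Gm2a, whose product presents a ganglioside to its hydrolase, rose by 0.32, while its second probe set gave 0.00. The third to fall, named after its value was seen, was Ugcg (-0.36, adjusted p = 0.0197), which makes the glucosylceramide from which gangliosides are built, so the genes that fell serve both degradation and synthesis. In hGAS against GasKO 2 of the 9 rose and 2 fell, where 8.05% of all genes tested rose and 8.51% fell. B4galt5 fell by 0.37 in that comparison (adjusted p = 0.0164 in limma), a call kept in 17 of 19 alternatives. Between hGAS and WT it gave -0.38 (adjusted p = 0.0738 in limma), not called, and between GasKO and WT -0.01.

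The proteins that carry or read the sialylated chains were not called against WT. Of 5 mucin genes tested none was called in limma in any comparison, and 0, 1 and 1 had an unadjusted p under 0.05 in GasKO vs WT, hGAS vs WT and hGAS vs GasKO. Muc2 was higher on every hGAS array than on any WT array, by 0.26 on average (adjusted p = 0.157). Of 10 genes for sialic acid readers, only Cd22 passed the filter and 8 others on the array were near background. Cd22, the B cell receptor that binds the product of St6gal1, gave 0.27 in GasKO (adjusted p = 0.27) and -0.42 in hGAS (adjusted p = 0.223), and fell by 0.69 between hGAS and GasKO (adjusted p = 0.0107). The B cell markers described above moved with it. Over the 9 lists 69 genes were tested, and 15 were called between GasKO and WT, beside 12.1% of all genes. St8sia5 is among these 15 and entered the test only through its GasKO arrays, so the counts over the lists are descriptions. In hGAS against WT none of the 69 was called in limma, while 26 had an unadjusted p under 0.05, as did 14.2% of all genes tested. The arrays of hGAS and WT did not overlap in 25 of the 69, where 17.7% of all genes tested showed this.

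**Figure D5:**
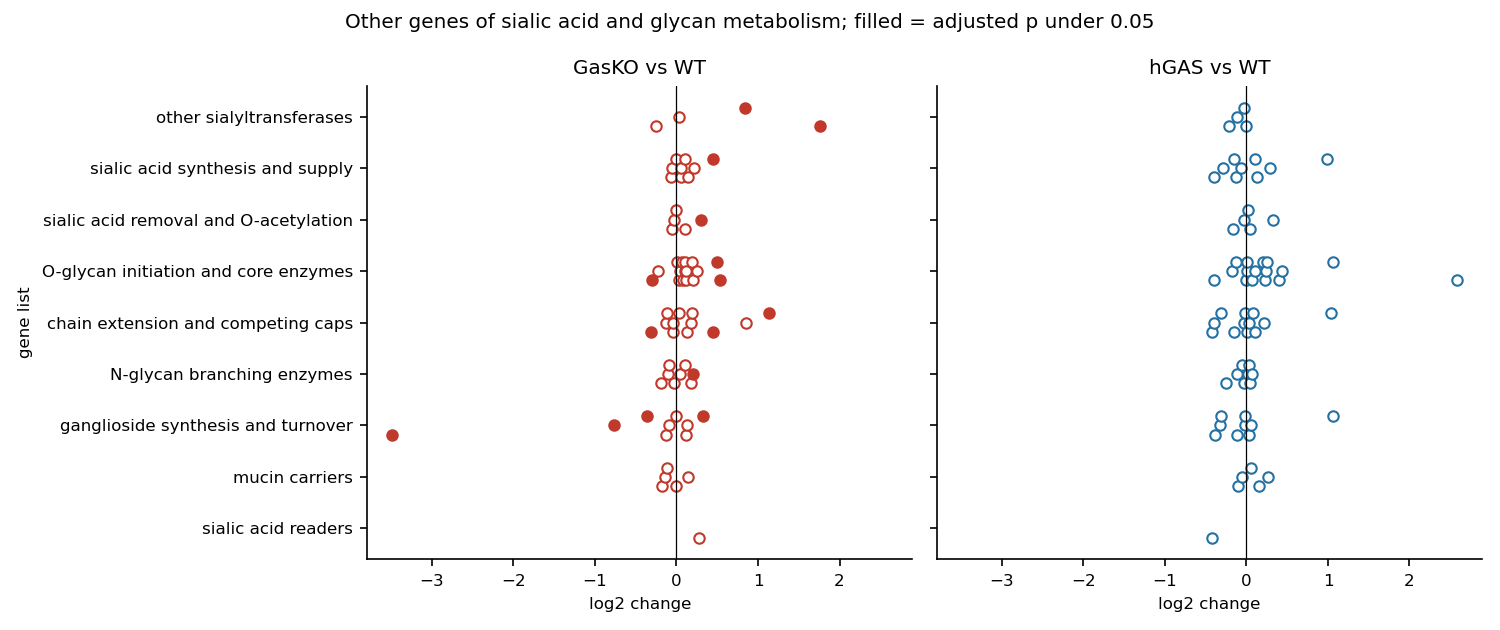
Log2 change of each tested gene of the pathway lists in GasKO vs WT and hGAS vs WT, 1 point per gene, grouped by list; filled points are called. The calls lie in GasKO vs WT, and none lies in hGAS vs WT.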

How the data were processed

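Colonic mucosa RNA of 9 samples, 3 per genotype, was read on Affymetrix mouse arrays of 45101 probe sets. The deposited values are log2 expression values made by the authors with GCRMA (version not stated), per the submitters' processing notes. GCRMA corrects background by probe sequence, equalises the arrays' distributions and summarises probes, so levels under log2 4 are mostly background. Gene names came from the platform annotation, and 34754 probe sets matched a GRCm38 gene table used for names and gene order. The files name no build, so no coordinates are given.

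Of a gene's probe sets, the one brightest on average stood for the gene. Genes with at least 3 arrays at log2 4 or more (11274) were fitted with limma 3.58.1 in R 4.3.3, using lmFit and trended eBayes, with genotype as the only term over all 9 arrays. The fit had 6 residual degrees of freedom and a prior of 3.47. A second fit covered 19834 probe sets. Tests were 2-sided with Benjamini-Hochberg adjustment, called at an adjusted p under 0.05, and intervals are 95%. The fit was tested on simulated data. The labels do not say that replicates are separate mice, so the p-values reflect only the spread among these samples, which may be technical, and the number of arrays limits precision.

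The genes and lists were chosen with earlier results of these data known. All 10 sialyltransferases are named. From each pathway list up to 4 called genes with the smallest p are named. For genes called with a log2 change of at least 1, the 5 most similar profiles and the 3 neighbours on each side are named, and a few others were named after their values were seen. Alternatives covered the filter, normalisation, choice of probe set, eBayes settings, array weights, 6-array fits, thresholds, a replicate block and each array left out. Plots used matplotlib 3.10.9 (Python 3.11.15).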

Additional observations from a re-analysis of the deposited data

How the results depend on the processing

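The number of sialyltransferase genes called between GasKO and WT (3) was 1 with the mean of a gene's probe sets, 1 at an adjusted p under 0.01, and 2 to 3 when each array was left out. Between hGAS and WT (0) it was 1 with the replicate block, 1 at an adjusted p under 0.10, and 0 to 1 with arrays left out. By probe set it was 1 in GasKO at an adjusted p under 0.01. In hGAS it was 1 with the replicate block and 1 at an adjusted p under 0.10, and between hGAS and GasKO (3) it was 5 at an adjusted p under 0.10.

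St6galnac1 was called in GasKO in 20 of 20 alternatives, from 3.20 with the mean of its probe sets to 6.36, and St6galnac2 in 19 of 20. With the mean of probe sets St6galnac2 gave -0.14 (adjusted p = 0.0514) and St6gal1 0.09 (adjusted p = 0.399). Without the filter St6gal1 gave 0.29 (adjusted p = 0.0573). St3gal1 between hGAS and WT was called with the replicate block (1.35, adjusted p = 0.0362). Over its 18 alternatives the adjusted p lay between 0.0362 and 0.215, and in the remaining settings the gene did not pass the filter. St3gal4 in GasKO was called with array weights (-0.35, adjusted p = 0.0392), and between hGAS and GasKO with 6 arrays (0.23, adjusted p = 0.0493). The cause was not tested.

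Uncalled values near 0 changed sign. St6galnac4 in GasKO became -0.017 with the mean of probe sets and -0.0082 with array weights, and its second probe set went from -0.061 to 0.0906 without WT replicate 3, an alternative chosen after seeing the data. St6galnac6 between hGAS and GasKO became 0.0076 with median centring and 0.025 with array weights. St3gal3 in that comparison became 0.0086 with median centring, 0.043 with the mean of probe sets and 0.011 with array weights. With each array left out in turn, values in GasKO vs WT ran from -0.0586 to 0.0762 for St6galnac4, -0.28 to 0.36 for St3gal1, -0.0278 to 0.244 for St3gal3 and -0.112 to 0.0353 for St3gal6. In hGAS vs WT they ran from -0.0194 to 0.0489 for St6galnac1, -0.0280 to 0.244 for St3gal3 and -0.172 to 0.0602 for St3gal4. In hGAS vs GasKO they ran from -0.0427 to 0.0412 for St6galnac6 and -0.0370 to 0.0280 for St3gal3.

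Replicate numbers are shared between genotypes. Deviations of arrays with the same number correlated between -0.0056 and 0.267 over genes, and 8 of 9 arrays matched their own number best, but not every pair exceeded 0.1, so they were not treated as pairs. With the replicate block 1558, 283 and 2087 genes were called in GasKO vs WT, hGAS vs WT and hGAS vs GasKO, against 1366, 131 and 1866 without it. Values near background limit what can be seen of St6galnac3 and of St6galnac1 outside GasKO.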

Other observations

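Some glycan genes outside the group of 10 had large differences that were not called, and they are named here after their values were seen. B3gnt6, which builds the core O-glycan typical of colonic mucin, gave 2.59 between hGAS and WT (SE 0.79, adjusted p = 0.169 in limma). Its WT mean was 5.96 ± 1.99 (SD, n = 3), and without WT replicate 3 the difference was 1.46. B4galnt1, an enzyme of complex gangliosides, gave 1.07 (adjusted p = 0.132), and Cmah, which hydroxylates sialic acid to its non-human form, gave 0.99 (adjusted p = 0.12). B4galnt2, whose product caps sialylated galactose in the colon, gave 1.04 between hGAS and WT (adjusted p = 0.107) and 0.86 between GasKO and WT (adjusted p = 0.0728). In all of these the arrays of the groups compared did not overlap. Without WT replicate 3, B4galnt1 gave 0.69, Cmah 0.72 and B4galnt2 0.68 and 0.50.

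St8sia6, an enzyme that extends sialic acid on O-glycans, was not called on the probe set that represents it, but its probe set 1456147_at rose in GasKO by 1.23 (SE 0.16, adjusted p = 0.0011 over all probe sets tested). It read 5.40, 5.21 and 4.69 in GasKO, 3.95, 3.91 and 3.74 in WT and 4.50, 4.50 and 4.58 in hGAS. The hGAS arrays lay above the WT arrays, by 0.66 on average (adjusted p = 0.0994).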
